A study of Mus musculus with 8 samples.

Results

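The 40 genes described here encode proteins of DNA replication and mitosis, and they were chosen by name. All 40 were found among the 56748 genes of the count table, and all 40 were among the 18495 genes that passed the filter on low counts. The counts came from whole skin of 8 male mice aged 35 weeks, 1 library per mouse. The 3 NPY-tet mice were NPY tet/tet animals of strain B6;129S4-Npytm2Rpa/J, in which the gene of the neuropeptide transmitter NPY carries a tet allele on both copies, and the 5 wild-type mice were their NPY +/+ siblings. Neither group received a treatment, and the labels name no promoter or cell type that drives the allele. The study asked how skin differs when NPY is overexpressed. In 6 of the 8 samples the mouse number in the library name is higher by 1 than the number in the title, with the genotype unchanged, so which mouse stands behind a replicate is uncertain. The p-values below measure the spread between these mice.

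Npy itself had 5 to 15 counts in the wild-type libraries and 10394 to 11864 counts in the NPY-tet libraries, a log2 fold change of 10.37 (SE 0.28, edgeR quasi-likelihood test, Benjamini-Hochberg adjusted p = 3.60e-09). Libraries held 31370433 to 47495565 counts. Krt5, a keratin of the basal epidermis, lay between 2608 and 5391 CPM (counts relative to the library total, scaled by TMM) in the 8 libraries. Genes annotated as ribosomal RNA took 6.44 to 8.07% of the counts in 5 libraries, and 0.0388 to 0.0754% in the other 3, which were NPY-tet replicates 2 and 3 and wild-type replicate 4. Hair genes also differed between the libraries. The hair keratin level, defined as the mean log2 CPM of 13 hair shaft keratins, was 0.82, -2.56, -1.63, -2.22 and 6.13 for the wild-type mice and 3.98, 5.60 and 1.79 for the NPY-tet mice, both in the order of the replicate numbers. Wild-type replicate 5 and NPY-tet replicate 2 therefore had the highest hair keratin levels, and 1 of them belongs to each genotype.

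A dividing cell first licenses its replication origins by loading the MCM helicase, then copies its DNA in S phase, and finally separates the chromosomes in mitosis. Transcription factors of the E2F family switch on the genes of DNA synthesis, and complexes that hold B-Myb and FoxM1 switch on the mitotic genes later in the cycle, in many cases through the promoter element called CHR. In skin, cells divide in the basal epidermis and the sebaceous gland, and, during the growth phase of the hair cycle, in the matrix of the hair follicle, whose daughter cells become the hair shaft and the inner root sheath. Whole skin holds all of these cells, so that in these libraries a change in the number of dividing cells and a change in RNA per cell cannot be told apart.

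The 8 most abundant members per length were replication genes, while Cdt1, Cdc45, Tyms and Cdc6, of the same role, stood at ranks 11, 14, 24 and 35 of 40. Over the 8 libraries, the deposited FPKM averaged 16.1 for Pcna, the sliding clamp of DNA polymerase, and 10.6 for Mcm6, 9.30 for Mcm7, 7.33 for Mcm3, 7.26 for Mcm5 and 6.53 for Mcm4, subunits of the helicase. In the wild-type mice Pcna was at 16.2 ± 1.64 (SD, n = 5) and Mcm6 at 11.6 ± 1.23 (SD, n = 5) FPKM, a gap larger than their SDs, while Mcm3 at 8.07 ± 0.660 (SD, n = 5) and Mcm5 at 7.82 ± 1.40 (SD, n = 5) FPKM did not differ beyond theirs. Cdc20, an activator of the anaphase-promoting complex, was the most abundant mitotic member, at rank 10 with 4.26 FPKM. Kif11, the motor that pushes the spindle poles apart, averaged 0.604 FPKM, and the kinetochore proteins Cenpe and Cenpf stood last with 0.166 and 0.152 FPKM. Each member had at least 23 counts in each library.

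No member differed between the genotypes by the test. At an adjusted p under 0.05, edgeR called 0 of the 40 members, and 0.00541% of all genes tested, which is Npy alone. At an unadjusted p under 0.05 it also found 0 of 40 members, against 5.98% of all genes (3.55% lower and 2.43% higher). DESeq2 and limma-voom with quality weights called 0 of 40 members as well, against 0.369 and 0.0162% of all genes. In NPY-tet skin 18 members were fitted higher and 22 lower, with a median log2 fold change of -0.04 beside 0.00 for all genes, and single members ranged from -0.58 to 0.38. For 0 members did the genotypes fail to overlap, against 1.98% of all genes for NPY-tet lower and 1.81% for NPY-tet higher. With 3 mice against 5, the smallest p that an exact permutation test can give is 0.0179. In simulated counts 52.5% of genes changed by 1 log2 unit were recovered, in a run where 136 genes were called. With 1 gene called in these data the adjusted threshold is stricter, so that share does not apply to this test.

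**Figure D1:**
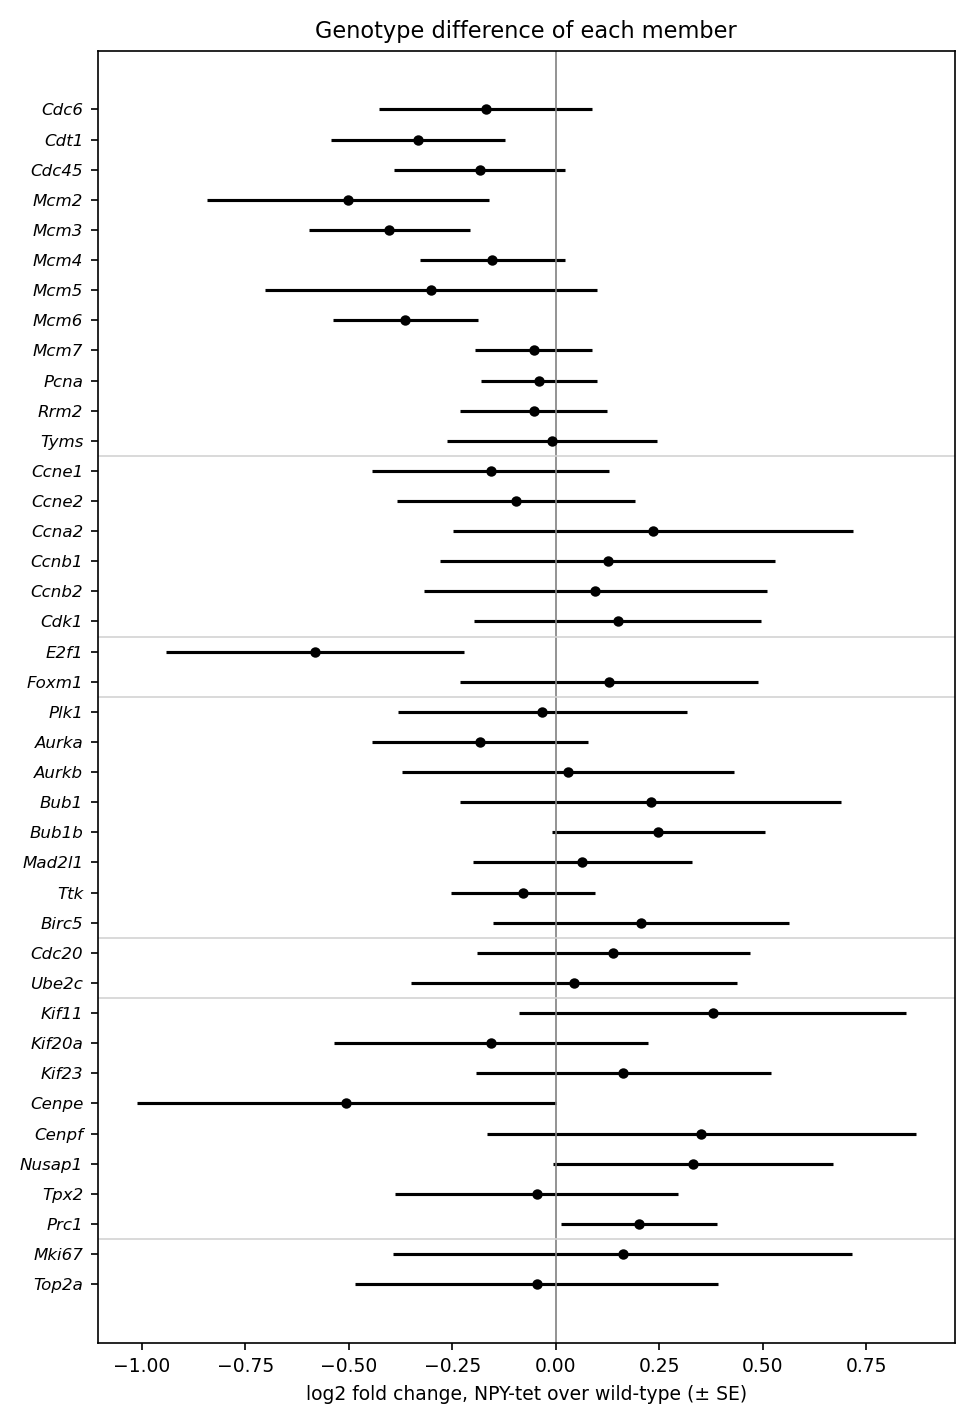
Each point is the log2 fold change of 1 member, NPY-tet over wild-type, with its standard error, and horizontal lines separate the roles. The 40 values lie between -0.58 and 0.38, and the 12 licensing and DNA synthesis genes at the top all have fitted values below 0.

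That balance rested on 2 NPY-tet libraries that lay at opposite ends. NPY-tet replicate 1 was the lowest of the 8 libraries for 31 of 40 members (77.5%, against 18.4% of all genes tested). NPY-tet replicate 2 was the highest for 26 of 40 members (65%, against 13.1% of all genes). Without NPY-tet replicate 1 the median log2 fold change of the members was 0.27 and 31 were fitted higher; without NPY-tet replicate 2 it was -0.42 and 0 were fitted higher. Neither fit called a member. With the hair keratin level in the model the median was -0.28, with 3 members fitted higher. With the ribosomal RNA set in the model it was -0.23, and 0 members were called, against 0.0595% of all genes. In that fit 6 members were lower at an unadjusted p under 0.05, and the share of all genes lower at that p is not given here. Each ribosomal RNA set holds only 1 library of 1 of the genotypes.

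**Figure D2:**
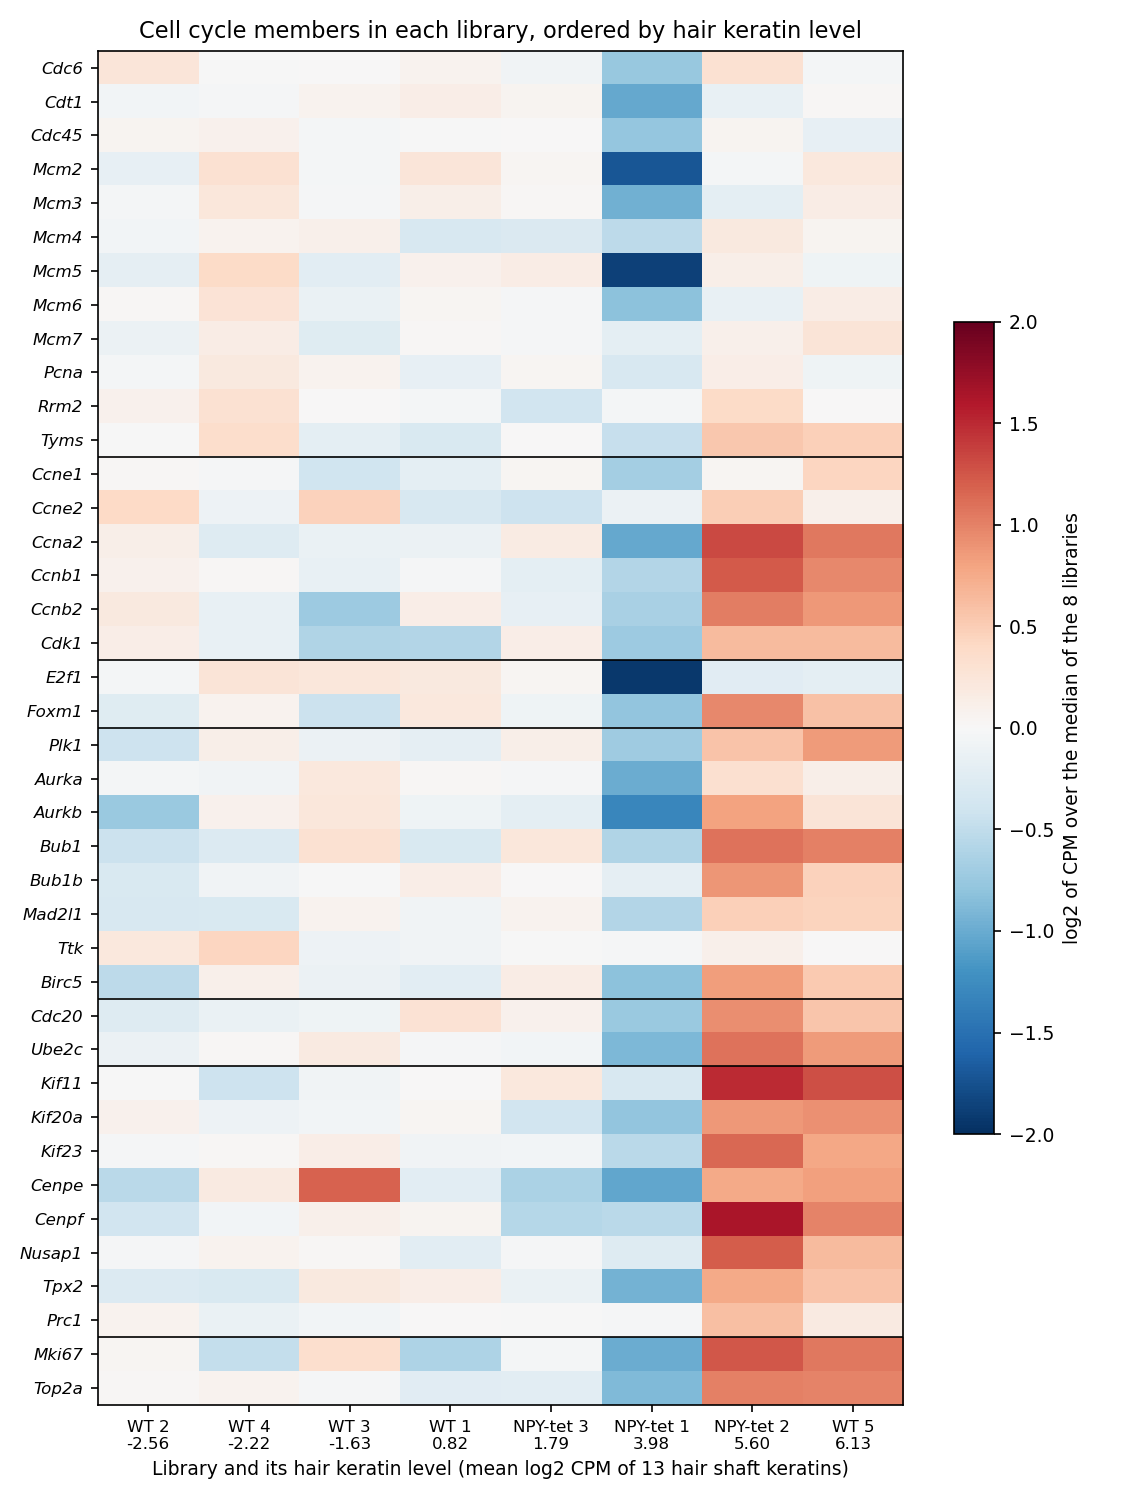
Columns are the 8 libraries ordered by hair keratin level, which is printed under each name, and rows are the 40 members grouped by role; colour gives the log2 ratio of CPM to the median of the 8 libraries, on a scale that ends at -2 and 2. Wild-type replicate 5 and NPY-tet replicate 2 on the right are high for most mitotic members, and NPY-tet replicate 1 beside them is the lowest library for 31 members.

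Against the hair keratin level, the values of the members differed by role, and the difference between roles was not tested. The 2 libraries with the highest hair keratin level, wild-type replicate 5 and NPY-tet replicate 2 (the hair-rich libraries), were also the 2 highest libraries for 24 of 40 members (60%, against 5.92% of all genes tested). These were 1 of 12 licensing and DNA synthesis genes, 5 of 6 cyclins and Cdk1, 1 of 2 transcription factors, 6 of 8 mitotic kinases and checkpoint genes, 2 of 2 genes of the anaphase-promoting complex, 7 of 8 motors and kinetochore genes, and 2 of 2 chromosome markers. Some were near ties: the lower of the pair stood at 1.01 (Ccne1), 1.02 (Aurkb), 1.08 (Prc1) and 1.09 (Tyms) times the highest other library. The slope on the hair keratin level, which is the log2 change in expression per unit of that level with genotype in the model, was positive for 31 of 40 members (48.4% of all genes), with a median of 0.08. For the 12 licensing and DNA synthesis genes the median slope was -0.00, and for the other 28 members it was 0.11. With the replicate number also in the model these medians were 0.10 and 0.30. In that fit wild-type replicates 4 and 5 have no NPY-tet partner and do not inform the slope, and the numbers are not known to pair mice. The edgeR test on the slope called 0 of 40 members at an adjusted p under 0.05, against 1.80% of all genes, 1.73% with a positive and 0.0703% with a negative slope. At an unadjusted p under 0.05, 13 members had a positive slope and 0 a negative one, against 5.15% and 3.84% of all genes. Without wild-type replicate 5 the positive count was 1, against 1.72% of all genes. Without NPY-tet replicates 1, 2 and 3 it was 19, 5 and 5, against 5.92, 5.15 and 5.32% of all genes. With the level taken from 9 inner root sheath genes in place of the shaft keratins it was 1, against 4.73% of all genes.

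**Figure D3:**
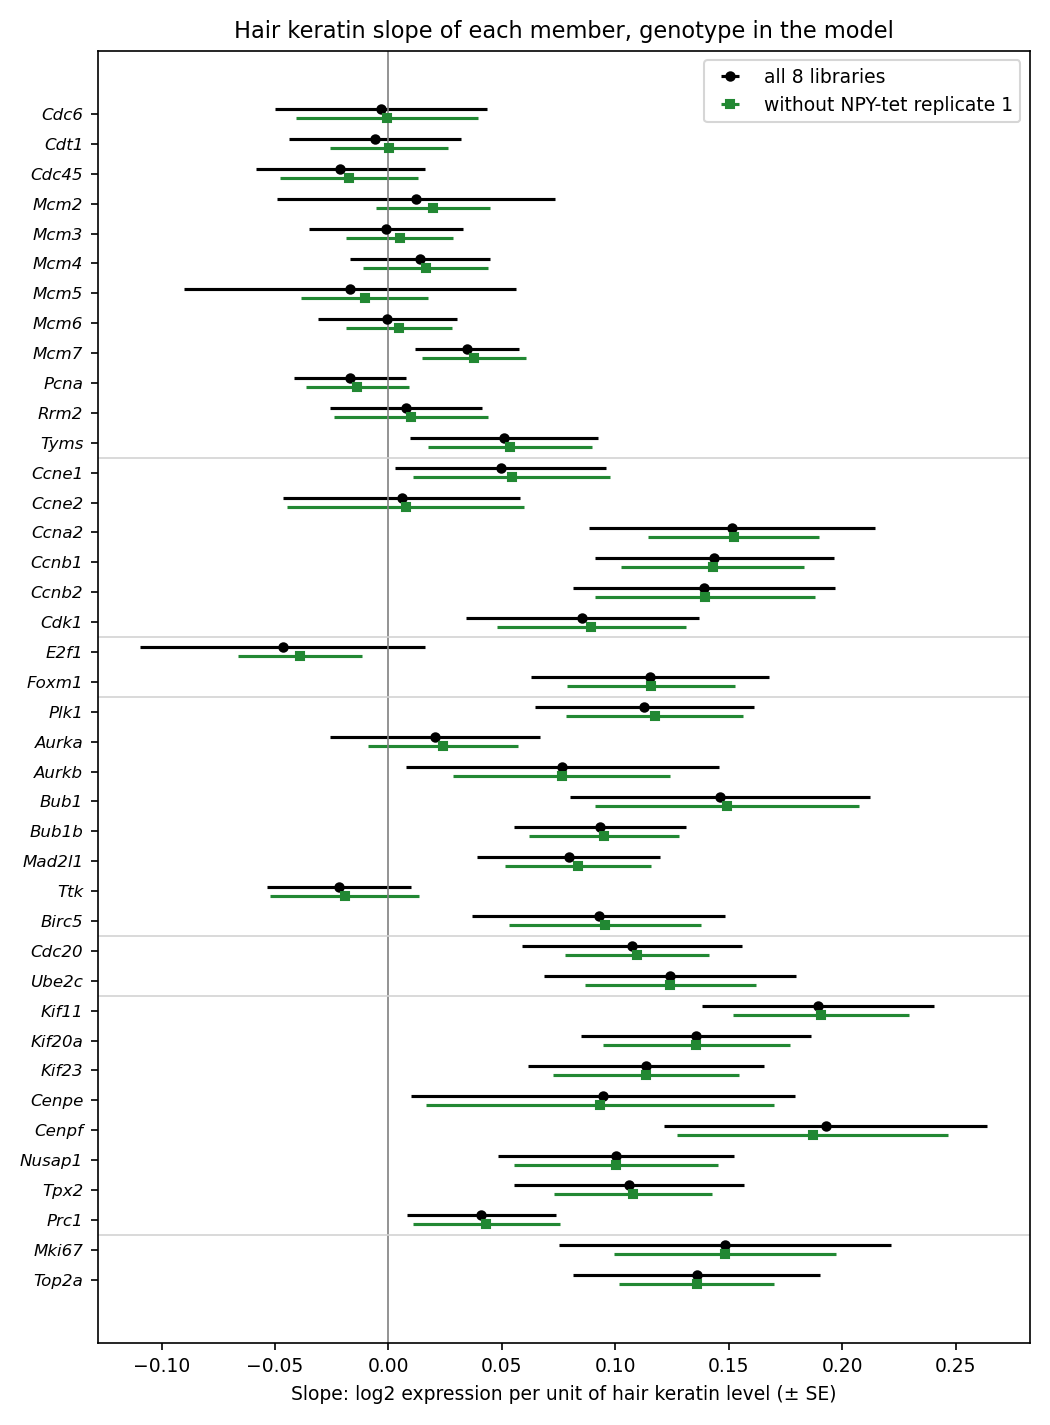
Points give the slope of each member on the hair keratin level with its standard error, in black for all 8 libraries and in green without NPY-tet replicate 1. The licensing and DNA synthesis genes at the top lie around 0, with a median of -0.00, and the cyclins of mitosis, the motors and the chromosome markers lie to the right of 0.

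Promoters of the 2 kinds of member are printed here because the median slopes of these groups were -0.00 and 0.11; the difference between the groups was not tested. Of the 40 members, 33 matched a promoter in the RefSeq table of build GRCm38.p6, which runs from 250 bases before to 50 bases after the gene start. The motif CHR, searched as TTTGAA on both strands, was found in 14 of 22 members of the other roles (63.6%), in 2 of 11 licensing and DNA synthesis genes (18.2%) and in 20.2% of all 27025 genes in the table. All 16 of these member promoters also held a CCAAT box, searched as CCAAT, a pair found in 7.97% of all genes. With or without a CHR, the CCAAT box was found in 8 of 11 licensing and DNA synthesis genes (72.7%), 17 of 22 other members (77.3%) and 41.1% of all genes. The E2F motif TTGGCGC was found in 5 of 11 licensing and DNA synthesis genes (45.5%), in 3 of 22 other members (13.6%) and in 2.85% of all genes. The E2F motif TTCGCGC was found in 3 of 11, 1 of 22 and 1.81%, and TCCCGCC, in the opposite order, in 2 of 11 (18.2%), 7 of 22 (31.8%) and 12.7%. Any of the 3 E2F motifs was found in 5 of 11 licensing and DNA synthesis genes (45.5%), 9 of 22 other members (40.9%) and 16.1% of all genes. The Sp1 box, searched as GGGCGG and not marked below, was also more frequent in members of both kinds. It was found in 9 of 11 (81.8%), 19 of 22 (86.4%) and 38.2% of all genes. In the sequences below, capitals mark CHR, CCAAT and the 3 E2F motifs on either strand, from 250 bases before to 20 bases after the start. Kif11 and Top2a are shown as members high in the 2 hair-rich libraries, Ube2c and Ccnb1 as a pair of such members with and without a CHR, and Mcm6 as a licensing gene that did not follow them.
Kif11 (chr19:37376132-37376401, plus strand): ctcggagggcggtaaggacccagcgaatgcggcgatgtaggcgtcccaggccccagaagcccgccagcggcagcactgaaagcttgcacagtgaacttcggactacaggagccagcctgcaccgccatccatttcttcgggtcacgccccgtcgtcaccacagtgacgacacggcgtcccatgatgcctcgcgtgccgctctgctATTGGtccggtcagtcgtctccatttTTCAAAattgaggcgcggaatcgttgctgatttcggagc
Top2a (chr11:99024170-99024439, minus strand): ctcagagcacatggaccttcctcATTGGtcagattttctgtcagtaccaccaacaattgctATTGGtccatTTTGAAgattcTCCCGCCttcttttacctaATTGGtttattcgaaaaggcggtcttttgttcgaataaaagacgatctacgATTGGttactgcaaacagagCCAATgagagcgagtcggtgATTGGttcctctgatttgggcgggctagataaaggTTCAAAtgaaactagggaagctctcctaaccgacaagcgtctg
Ube2c (chr2:164769679-164769948, plus strand): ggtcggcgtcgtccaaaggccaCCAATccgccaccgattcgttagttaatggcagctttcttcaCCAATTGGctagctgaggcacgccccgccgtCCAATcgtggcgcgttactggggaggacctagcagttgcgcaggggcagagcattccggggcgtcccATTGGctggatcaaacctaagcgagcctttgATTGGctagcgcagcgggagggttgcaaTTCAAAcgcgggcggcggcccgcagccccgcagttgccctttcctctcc
Ccnb1 (chr13:100786467-100786736, minus strand): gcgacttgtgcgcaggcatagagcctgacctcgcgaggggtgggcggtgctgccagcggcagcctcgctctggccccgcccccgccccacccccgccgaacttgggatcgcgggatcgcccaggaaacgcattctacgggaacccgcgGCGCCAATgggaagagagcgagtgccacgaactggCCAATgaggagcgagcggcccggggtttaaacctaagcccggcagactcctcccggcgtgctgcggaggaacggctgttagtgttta
Mcm6 (chr1:128359686-128359955, minus strand): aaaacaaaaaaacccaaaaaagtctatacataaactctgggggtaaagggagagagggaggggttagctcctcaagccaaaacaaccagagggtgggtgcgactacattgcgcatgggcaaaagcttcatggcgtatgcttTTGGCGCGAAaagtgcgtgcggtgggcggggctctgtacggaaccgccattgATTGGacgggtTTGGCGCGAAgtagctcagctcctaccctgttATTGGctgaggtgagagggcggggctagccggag
Kif11 holds a CHR on the minus strand, its first printed base 19 bases before the start, and a CCAAT box 45 bases before the start. Top2a holds a CHR 23 bases before the start, another 179 bases before it, and 6 CCAAT boxes. In Ube2c the CHR lies 29 bases before the start, and the run CCAATTGG holds a CCAAT box on each strand. Ccnb1 holds no TTTGAA in this window but holds the related letters TTTAAA, left in lower case, which are found in 14.9% of all genes, and its E2F motif overlaps a CCAAT box. In Mcm6 the 2 runs TTGGCGCGAA each join TTGGCGC and, on the minus strand, TTCGCGC, at 109 and 46 bases before the start. Distances are from the RefSeq gene start; the bases that follow that start were found in a GENCODE transcript for Top2a, Ube2c and Ccnb1, and not for Kif11 and Mcm6. A match of these letters is a description of the sequence.

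The 12 genes of origin licensing and DNA synthesis had their lowest value in the same library, NPY-tet replicate 1, in 10 of 12 cases. Cdc6 and Cdt1 load the helicase onto origins, Mcm2 to Mcm7 form its ring, Cdc45 is needed to activate it, and Rrm2 and Tyms help make the nucleotides. Values per library are given below in the order of the replicate numbers. For Mcm6 the wild-type libraries held 53.2, 52.6, 47.6, 62.6 and 57.3 CPM and the NPY-tet libraries 29.5, 46.8 and 51.2 CPM. Mcm3 stood at 31.3, 27.98, 28.3, 33.6 and 31.97 CPM in wild-type skin and at 14.9, 25.2 and 29.5 CPM in NPY-tet skin. Cdt1 had 15.7, 13.7, 15.1, 14.2 and 14.5 CPM in the wild-type libraries and 7.03, 12.9 and 14.9 CPM in the NPY-tet libraries. In all 3 genes NPY-tet replicate 1 was the lowest library, and the other 2 NPY-tet libraries lay within or near the wild-type range. The log2 fold change was -0.36 (SE 0.18) for Mcm6 (chr1:128259327-128287401 in mm39, minus strand), -0.40 (SE 0.19) for Mcm3 and -0.33 (SE 0.21) for Cdt1, with edgeR adjusted p of 0.795, 0.795 and 0.807. Without NPY-tet replicate 1 these were -0.15, -0.16 and -0.07. An exact permutation test over the 56 splits of the mice gave a two-sided p of 0.0357 for Mcm6, which was the lowest of the 40 members and is not adjusted for them. All 12 genes were fitted lower in NPY-tet skin (49.3% of all genes were), with a median of -0.18, and 0 of 12 had an unadjusted p under 0.05. Without NPY-tet replicate 1 that median was 0.01.

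Within this role, the lowest values of NPY-tet replicate 1 relative to the other libraries were those of Mcm2 and Mcm5, which are named here after their values were seen. For Mcm2 the wild-type libraries held 42.8, 32.3, 35.1, 44.9 and 42.03 CPM and the NPY-tet libraries 11.1, 35.4 and 37.1 CPM. Mcm5 stood at 33.01, 27.7, 27.1, 40.7 and 29.4 CPM in wild-type skin and at 8.53, 33.9 and 34.4 CPM in NPY-tet skin. NPY-tet replicate 1 lay at 8.53 CPM for Mcm5 against 27.1 to 40.7 CPM in the other 7 libraries, and at 11.1 CPM for Mcm2 against 32.3 to 44.9 CPM. Rrm2 and Mcm7 were the 2 genes of this role that had their lowest value in another library. Rrm2 had 13.1, 14.3, 13.5, 16.6 and 13.5 CPM in the wild-type libraries and 13.1, 17.6 and 10.3 CPM in the NPY-tet libraries. For Rrm2, a subunit of ribonucleotide reductase, NPY-tet replicate 3 was the lowest. Cdc6, Cdc45 and Mcm4 ranged from 2.16 to 4.50, from 4.64 to 8.40 and from 17.4 to 28.7 CPM, each lowest in NPY-tet replicate 1.

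The genes of this role with the smallest p for the hair keratin slope were Mcm7, Tyms and Pcna. For Mcm7 the wild-type libraries held 42.1, 38.2, 35.1, 46.02 and 49.6 CPM and the NPY-tet libraries 36.4, 44.6 and 41.1 CPM. Tyms stood at 6.31, 7.80, 6.84, 10.02 and 10.9 CPM in wild-type skin and at 5.69, 11.4 and 7.87 CPM in NPY-tet skin. Pcna had 35.2, 38.5, 41.3, 45.00 and 37.1 CPM in the wild-type libraries and 31.5, 43.1 and 40.4 CPM in the NPY-tet libraries. Tyms, which encodes thymidylate synthase, was the 1 replication gene whose 2 highest libraries were the 2 with most hair keratin. Slopes were 0.03 (SE 0.02) for Mcm7, 0.05 (SE 0.04) for Tyms and -0.02 (SE 0.02) for Pcna, with edgeR adjusted p of 0.780, 0.847 and 0.946. Without wild-type replicate 5 the slope was 0.020 for Mcm7 and 0.0083 for Tyms; without wild-type replicate 4 it was 0.078 for Tyms and -0.0051 for Pcna, and without NPY-tet replicate 2 it was 0.032 for Tyms. Of 30 further replication genes, such as origin recognition and polymerase subunits, 16 had a positive slope (48.4% of all genes). Of these, 1 had an unadjusted p under 0.05 (5.15% of all genes) and 0 were called (1.73%). That 1 gene was Dbf4, which encodes the activating subunit of the Cdc7 kinase, with a slope of 0.14 and an adjusted p of 0.294. The list was lowest in NPY-tet replicate 1 too, with a mean log2 CPM of 2.38 against 2.92 to 3.27 in the other libraries.

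Among the cyclins, those of mitosis were high in the 2 hair-rich libraries. For Ccna2 the wild-type libraries held 4.41, 5.19, 4.39, 4.00 and 9.97 CPM and the NPY-tet libraries 2.37, 11.98 and 5.36 CPM. Ccnb1 stood at 4.88, 5.27, 4.46, 5.00 and 9.66 CPM in wild-type skin and at 3.30, 11.5 and 4.33 CPM in NPY-tet skin. Ccnb2 had 3.04, 3.19, 1.68, 2.52 and 5.05 CPM in the wild-type libraries and 1.78, 5.66 and 2.48 CPM in the NPY-tet libraries. In each of the 3 genes wild-type replicate 5 and NPY-tet replicate 2 were the 2 highest libraries, above the other 6, and the genotypes overlapped. Ccna2 acts in S phase and at the entry to mitosis, and Ccnb1 and Ccnb2 activate Cdk1 in mitosis. The slope on the hair keratin level was 0.15 (SE 0.06) for Ccna2, 0.14 (SE 0.05) for Ccnb1 and 0.14 (SE 0.06) for Ccnb2, with edgeR adjusted p of 0.499, 0.365 and 0.476. For Cdk1 the wild-type libraries held 3.43, 5.65, 3.39, 4.64 and 7.93 CPM and the NPY-tet libraries 3.09, 7.94 and 5.62 CPM. Cdk1, the kinase that they activate, followed the same order at the top. The E-type cyclins act earlier, at the start of S phase. Ccne1 stood at 2.38, 2.76, 2.08, 2.70 and 3.68 CPM in wild-type skin and at 1.70, 2.82 and 2.80 CPM in NPY-tet skin. Ccne2 had 2.32, 3.80, 3.96, 2.68 and 3.08 CPM in the wild-type libraries and 2.65, 4.07 and 2.16 CPM in the NPY-tet libraries. Ccne2 did not have wild-type replicate 5 among its 2 highest libraries. Ccne1 had a log2 fold change between genotypes of -0.16 (SE 0.29), with an edgeR adjusted p of 0.923. Of 9 cyclins and kinases of G1, the phase before DNA synthesis, 1 was called for its slope: Mycn, a transcription factor gene kept on that list, with 0.40 (SE 0.05) and an adjusted p of 7.52e-04. Of all genes tested, 1.80% were called for their slope.

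The 2 transcription factors ranked the libraries differently. For E2f1 the wild-type libraries held 17.2, 14.5, 17.4, 17.95 and 13.1 CPM and the NPY-tet libraries 3.94, 12.8 and 15.4 CPM. E2f1, which drives genes of DNA synthesis, was at 3.94 CPM in NPY-tet replicate 1 against 12.8 to 18.0 CPM in the other 7, and its 2 hair-rich libraries were not high. Foxm1 stood at 7.55, 5.54, 4.83, 6.88 and 9.80 CPM in wild-type skin and at 3.76, 12.8 and 6.17 CPM in NPY-tet skin. Foxm1, which drives mitotic genes, had these 2 libraries at the top. The log2 fold change of E2f1 was -0.58 (SE 0.36), with an edgeR adjusted p of 0.807, and without NPY-tet replicate 1 it was -0.18. Slopes were -0.05 (SE 0.06) for E2f1 and 0.12 (SE 0.05) for Foxm1, with adjusted p of 0.937 and 0.555. The slope of E2f1 was -0.0096 without NPY-tet replicate 3, and that of Foxm1 was 0.076 without NPY-tet replicate 2 and 0.19 without wild-type replicate 5. Of 13 other E2F and DREAM subunits, 10 had a positive slope (48.4% of all genes). Of these, 2 had an unadjusted p under 0.05 (5.15% of all genes) and 0 were called (1.73%). The 2 were E2f2 and Mybl2, the gene of B-Myb, with slopes of 0.08 and 0.12.

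**Figure D4:**
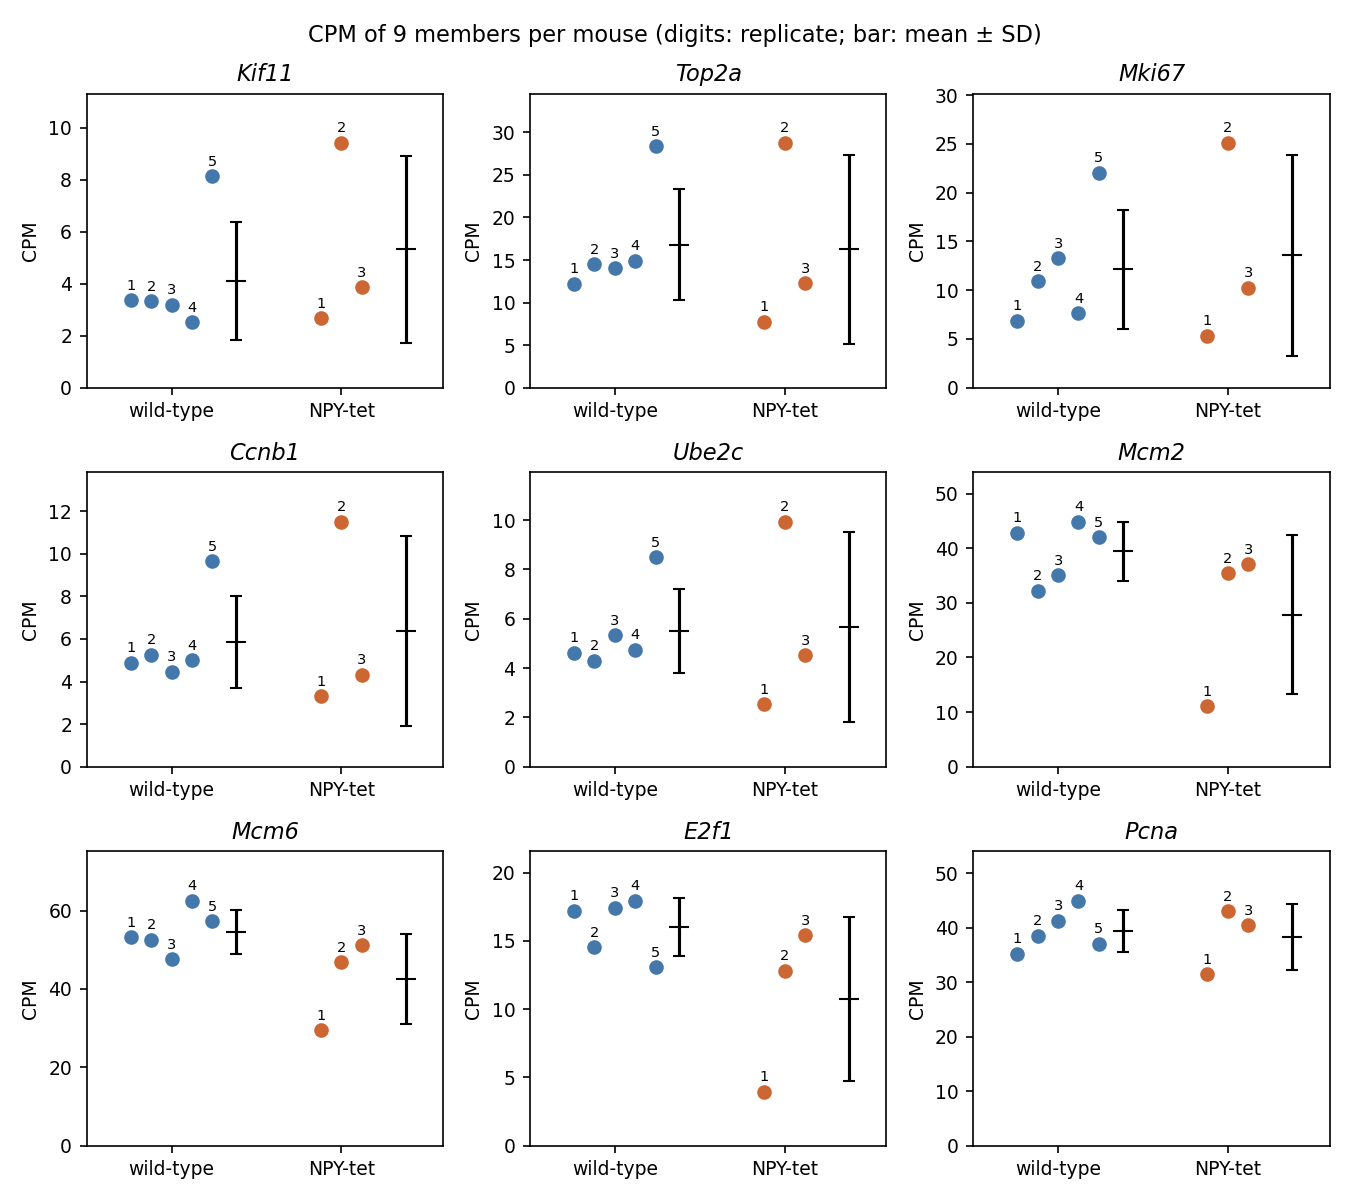
Each point is the CPM of 1 mouse, with its replicate number, and the bar beside each group is the mean with its SD (n = 5 wild-type, n = 3 NPY-tet); every axis starts at 0. Wild-type replicate 5 and NPY-tet replicate 2 stand above the rest for Kif11, Top2a, Mki67, Ccnb1 and Ube2c, while for Mcm2, Mcm6, E2f1 and Pcna the lowest library is NPY-tet replicate 1.

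Mitotic kinases and genes of the spindle checkpoint, which holds cells until every chromosome is attached, had their 2 highest values in the hair-rich libraries for 6 of 8 genes. Bub1b had 7.64, 5.65, 6.94, 6.64 and 9.60 CPM in the wild-type libraries and 6.16, 12.8 and 7.01 CPM in the NPY-tet libraries. For Plk1 the wild-type libraries held 2.98, 2.53, 3.12, 3.66 and 6.12 CPM and the NPY-tet libraries 2.06, 5.04 and 3.69 CPM. Bub1 stood at 0.856, 0.785, 1.31, 0.880 and 2.14 CPM in wild-type skin and at 0.695, 2.25 and 1.24 CPM in NPY-tet skin. The 2 hair-rich libraries were the 2 highest for each. Slopes were 0.09 (SE 0.04) for Bub1b, 0.11 (SE 0.05) for the polo kinase gene Plk1 and 0.15 (SE 0.07) for Bub1, with edgeR adjusted p of 0.460, 0.507 and 0.548. Without wild-type replicate 5 the slope was 0.16 for Bub1b and 0.055 for Plk1. Aurka had 6.34, 6.05, 7.21, 5.94 and 6.75 CPM in the wild-type libraries and 3.14, 7.80 and 6.11 CPM in the NPY-tet libraries. For Birc5 the wild-type libraries held 2.66, 2.15, 2.85, 3.32 and 4.45 CPM and the NPY-tet libraries 1.75, 5.53 and 3.40 CPM. Aurka, a kinase of the spindle poles, was low in NPY-tet replicate 1 and otherwise within a narrow range, and Birc5, the survivin gene, was highest in the hair-rich pair. The checkpoint kinase gene Ttk did not follow the others, with 7.48 to 10.8 CPM and its highest value in wild-type replicate 4. Aurkb and Mad2l1 ranged from 1.70 to 7.34 and from 4.10 to 8.59 CPM, each highest in NPY-tet replicate 2 and lowest in NPY-tet replicate 1. Between genotypes, Bub1b had a log2 fold change of 0.25 (SE 0.26), with an edgeR adjusted p of 0.855.

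Cdc20 and Ube2c serve the anaphase-promoting complex, the ubiquitin ligase that ends mitosis. Cdc20 stood at 8.78, 6.00, 6.81, 6.58 and 10.6 CPM in wild-type skin and at 4.30, 13.7 and 7.61 CPM in NPY-tet skin. Ube2c had 4.63, 4.30, 5.33, 4.74 and 8.49 CPM in the wild-type libraries and 2.52, 9.95 and 4.53 CPM in the NPY-tet libraries. NPY-tet replicate 2 was the highest library, wild-type replicate 5 the second and NPY-tet replicate 1 the lowest for both. Slopes were 0.11 (SE 0.05) for Cdc20 and 0.12 (SE 0.06) for Ube2c, each with an edgeR adjusted p near 0.55 (0.546 and 0.545). Without wild-type replicate 5 the slope of Cdc20 was 0.18, and without NPY-tet replicate 2 that of Ube2c was 0.082. Cdc20 had a log2 fold change between genotypes of 0.14 (SE 0.33), with an adjusted p of 0.941.

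Among the motors and kinetochore genes, Kif11 had the smallest p for the slope of all 40 members. For Kif11 the wild-type libraries held 3.36, 3.32, 3.18, 2.52 and 8.13 CPM and the NPY-tet libraries 2.68, 9.43 and 3.86 CPM. The 2 hair-rich libraries were at 8.13 and 9.43 CPM, and the other 6 lay between 2.52 and 3.86 CPM. Kif11 (ENSMUSG00000012443, chr19:37364851-37410307 in mm39, plus strand) had a slope of 0.19 (SE 0.05), with an edgeR unadjusted p of 0.00316 and an adjusted p of 0.124. It passed the threshold in DESeq2 (adjusted p = 0.0382), in limma-voom with quality weights (adjusted p = 0.0417), and in edgeR when genes of low counts were kept (adjusted p = 0.0273). Kif11 was the 1 member called in each of these runs, against 2.23, 2.71 and 1.27% of all genes called with a positive slope. Without NPY-tet replicate 1 the edgeR adjusted p was 0.0172, and Kif11 was then the 1 member called, against 2.11% of all genes called with a positive slope. Kif11 missed the threshold in every other alternative: the edgeR adjusted p was 1.00 without wild-type replicate 5, 0.203 without NPY-tet replicate 2, 0.375 with the level from inner root sheath genes, and between 0.0768 and 0.248 in the others except the replicate block. Cenpf stood at 1.90, 1.42, 1.98, 1.78 and 3.68 CPM in wild-type skin and at 1.26, 5.72 and 1.24 CPM in NPY-tet skin. Kif20a had 3.62, 3.72, 3.39, 3.26 and 6.62 CPM in the wild-type libraries and 2.03, 6.37 and 2.68 CPM in the NPY-tet libraries. Slopes were 0.19 (SE 0.07) for Cenpf and 0.14 (SE 0.05) for Kif20a, a motor of cytokinesis, with adjusted p of 0.370 and 0.383. Without wild-type replicate 5 the slope of Cenpf was 0.37.

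The remaining genes of this role were less uniform. For Prc1 the wild-type libraries held 7.55, 7.82, 7.17, 6.86 and 8.43 CPM and the NPY-tet libraries 7.37, 11.3 and 7.41 CPM. Nusap1 stood at 2.76, 3.14, 3.22, 3.34 and 4.92 CPM in wild-type skin and at 2.65, 7.34 and 3.11 CPM in NPY-tet skin. Cenpe had 1.05, 0.835, 2.75, 1.38 and 2.14 CPM in the wild-type libraries and 0.592, 2.06 and 0.779 CPM in the NPY-tet libraries. Prc1, which bundles microtubules in the midzone of the spindle, varied least of the 3, and its log2 fold change was 0.20 (SE 0.19), with an edgeR adjusted p of 0.844. Cenpe, a kinetochore motor gene with few counts, was the 1 gene of this role that was highest in another library, wild-type replicate 3. Kif23 and Tpx2 ranged from 2.65 to 8.51 and from 3.32 to 10.8 CPM, each highest in NPY-tet replicate 2 and lowest in NPY-tet replicate 1. Of 30 further kinetochore and spindle genes, 29 had a positive slope (48.4% of all genes). Of these, 7 had an unadjusted p under 0.05 (5.15% of all genes) and 0 were called (1.73%). The smallest p-values were those of Hmmr, with a slope of 0.23 (SE 0.06) and an adjusted p of 0.135, and Cenpa, the centromeric histone gene, with 0.13 (SE 0.04) and 0.229. Of 18 condensin and mitotic exit genes, 17 had a positive slope, 2 at an unadjusted p under 0.05 and 0 called, against the same shares of all genes.

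Mki67, which encodes the antigen Ki-67 of dividing cells, and Top2a, which untangles replicated chromosomes, had the same 2 highest libraries. For Mki67 the wild-type libraries held 6.88, 10.9, 13.3, 7.64 and 22.04 CPM and the NPY-tet libraries 5.33, 25.1 and 10.3 CPM. Top2a stood at 12.2, 14.5, 14.01, 14.9 and 28.4 CPM in wild-type skin and at 7.73, 28.8 and 12.3 CPM in NPY-tet skin. For Mki67 the hair-rich libraries were at 22.0 and 25.1 CPM against 5.33 to 13.3 CPM in the other 6, and for Top2a at 28.4 and 28.8 CPM against 7.73 to 14.9 CPM. Slopes were 0.15 (SE 0.07) for Mki67 and 0.14 (SE 0.05) for Top2a (chr11:98883769-98915015 in mm39, minus strand), with edgeR adjusted p of 0.650 and 0.478. In the 5 wild-type libraries alone Top2a passed the threshold, with a slope of 0.28 and an edgeR adjusted p of 0.0374, where 1 library, replicate 5, holds the high hair keratin level. Top2a was the 1 member called there, against 0.936% of all genes called with a positive slope. The log2 fold change of Mki67 between genotypes was 0.16 (SE 0.55), with an adjusted p of 0.961.

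**Figure D5:**
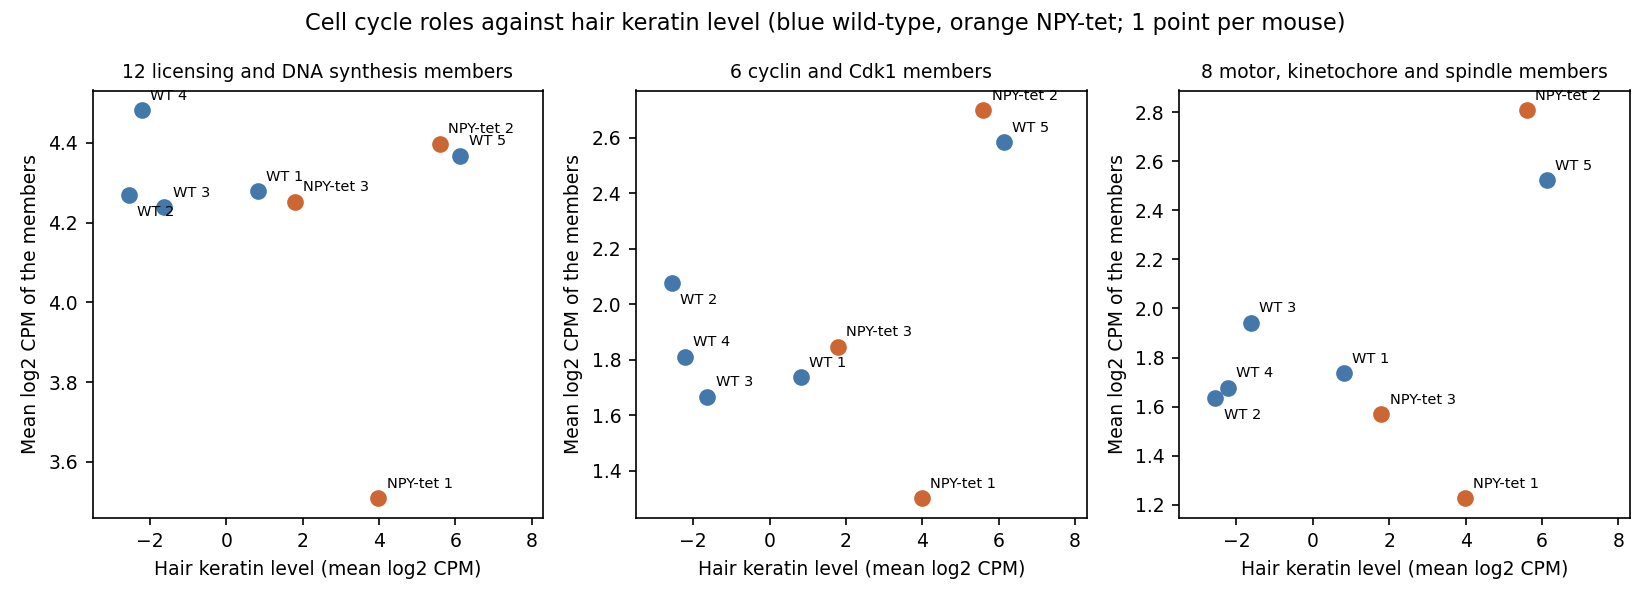
Each point is 1 mouse, with the hair keratin level on the horizontal axis and the mean log2 CPM of the members of 1 role on the vertical axis, in blue for wild-type and orange for NPY-tet; the vertical axes differ and do not start at 0. Wild-type replicate 5 and NPY-tet replicate 2 are highest for the cyclins with Cdk1 and for the motors, NPY-tet replicate 1 is lowest in all 3 panels, and the other 5 points lie between 1.67 and 2.08 for the cyclins and between 1.57 and 1.94 for the motors.

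Across all 8 libraries, the relation of the members to hair keratin rested on the 2 libraries with the highest level. Over the 40 members the median Pearson r with the hair keratin level was 0.41, beside 0.02 for all genes, and 26 members had r above 0. Kif11 had r = 0.75 (exact permutation p = 0.0271 over 40320 pairings, 0.351 adjusted over all genes) and rho = 0.64 (exact permutation p = 0.0962). Bub1b had r = 0.72 (exact permutation p = 0.0340, adjusted 0.373) and rho = 0.71 (exact permutation p = 0.0576). Prc1 had r = 0.64 (exact permutation p = 0.0431, adjusted 0.402) and rho = 0.52 (exact permutation p = 0.197). These were the 3 of 40 members with an unadjusted exact p of r under 0.05, and 0 of 40 had one for rho. The share over all genes is not given here, so these counts have no background beside them. After adjustment over all genes, the lowest exact permutation p of the 40 members was 0.351 for r and 0.549 for rho. Without wild-type replicate 5 and NPY-tet replicate 2, the 2 libraries farthest from the median level, r was 0.06 for Kif11, 0.18 for Bub1b and 0.14 for Prc1. In that set 37 of 40 members had r below 0, with a median of -0.63, beside 0.02 for all genes. NPY-tet replicate 1 then held the highest remaining hair keratin level, 3.98, and it was the lowest of the 8 libraries for 31 members. A correlation without all of these libraries was not computed. Without NPY-tet replicate 1 the median r was 0.73 and 33 members had r above 0; the licensing and DNA synthesis genes then had a median of 0.02 and the other members 0.79. The ribosomal RNA sets hold 5 and 3 libraries, too few for a correlation within a set. With the set in the model 21 members had a positive slope at an unadjusted p under 0.05, against 5.10% of all genes. In that fit 0 members were called, against 1.78% of all genes.

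Gene lists of other cell types moved with the same libraries, and their part in the members' values was not tested. All 13 hair shaft keratins, which define the level, and 9 of 9 inner root sheath genes, 7 of 10 hair matrix regulators and 6 of 6 melanocyte genes were called for a positive slope. Of all genes tested, 1.73% were. The summed level of the melanocyte genes was 96.6 CPM in wild-type replicate 5 and 90.6 CPM in NPY-tet replicate 2, and 8.48 to 19.2 CPM in the other 6 libraries. Tyr, the gene of tyrosinase, had no count in wild-type replicates 2 and 4. Summed hair matrix regulators reached 538 and 467 CPM in that pair, against 199 to 333 CPM in the others. NPY-tet replicate 1 had 333 CPM of them, and 270 CPM of hair shaft keratins, with the lowest values of 31 members. In that library the 8 fibroblast genes were also lowest, with a sum of 2844 CPM against 11051 to 26165 CPM in the other 7. The 7 white adipocyte genes went the other way: all 7 had a negative slope. Of these, 4 had an unadjusted p under 0.05 (3.84% of all genes) and 0 were called (0.0703%). Their mean log2 CPM was 8.62 in wild-type replicate 5 and 8.20 and 8.01 in NPY-tet replicates 1 and 2, the 3 libraries with the highest hair keratin level, against 8.80 to 9.25 in the other 5. For the 10 basal keratinocyte genes, 0 were called for a slope (1.80% of all genes), and NPY-tet replicate 1 had 9726 CPM against 9508 to 14434 CPM.

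Among 14 genes that restrain the cell cycle, 0 were called in either comparison, and 2 had an unadjusted p under 0.05 between genotypes (5.98% of all genes). Cdkn2c had 82.2, 80.96, 79.8, 88.98 and 54.5 CPM in the wild-type libraries and 24.8, 42.8 and 67.5 CPM in the NPY-tet libraries. For Btg2 the wild-type libraries held 42.6, 46.00, 36.1, 45.96 and 51.9 CPM and the NPY-tet libraries 71.9, 58.4 and 46.9 CPM. Cdkn1b stood at 50.97, 56.2, 47.5, 48.1 and 65.8 CPM in wild-type skin and at 96.2, 62.5 and 48.8 CPM in NPY-tet skin. Cdkn2c, an inhibitor of Cdk4 and Cdk6, was lowest in NPY-tet replicate 1, where the antiproliferative gene Btg2 and Cdkn1b, the gene of the inhibitor p27, were highest. The list as a whole did not stand apart there: the mean log2 CPM of the 14 genes was 4.89, within the 4.72 to 5.03 of the other libraries. The log2 fold change was -0.78 (SE 0.29) for Cdkn2c and 0.41 (SE 0.16) for Btg2, with edgeR adjusted p of 0.791 and 0.795.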

How the data were processed

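RNA from whole skin of 8 mice was sequenced as non-directional poly-T libraries, per the labels' protocols. The deposited table holds the authors' read counts per gene, and an FPKM value per gene and library, also made by the authors. The submitters' processing notes name the build mm39 and 4 tools, DESeq2 1.20.0, featureCounts 1.5.0-p3, HISAT2 2.0.5 and CASAVA; their settings, filters and annotation are not given in the sources used here. Reads of overlapping or antisense genes cannot be told apart without strand.

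Genes were filtered with filterByExpr and scaled by TMM, and tested with edgeR 4.0.16 (quasi-likelihood, robust) in R 4.3.3. Genotype was the only term of 1 model; the other held genotype and the hair keratin level, the mean log2 CPM (prior count 2) of 13 keratins. P-values were adjusted by Benjamini-Hochberg over all 18495 genes, with a threshold of 0.05. Correlations were tested exactly over 40320 pairings. Members and lists were chosen with earlier results of these data known. Within each role, values per library were given for up to 3 members with the smallest p in each comparison, and other lists name up to 2. The scripts were tested on simulated counts, where slopes of 0.1, 0.2 and 0.4 were recovered for 2.08, 61.2 and 84.8% of genes, and 10 of 129 calls were false. Libraries of 31370433 to 47495565 counts gave the members 23 to 3129 counts each. The alternatives were DESeq2 1.42.0, limma 3.58.1 (voom, and log2 FPKM with pseudocounts of 1 and 0.1), other size factors and filters, covariates, and leaving out each library.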

Additional observations from a re-analysis of the deposited data

Results flagged for a closer look

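In 9 of the 40 members, wild-type replicate 5 lay far above the other 4 wild-type libraries by Dixon's criterion, in which the gap to the nearest library is over 0.71 of the range of the 5. Its values were 28.4 CPM for Top2a, 9.97 CPM for Ccna2, 9.66 CPM for Ccnb1, 8.49 CPM for Ube2c, 8.13 CPM for Kif11, 6.62 CPM for Kif20a, 6.55 CPM for Kif23, 4.92 CPM for Nusap1 and 3.68 CPM for Cenpf. The mean log2 CPM of all 40 members was 3.28 in that library and 2.74 to 2.84 in the other 4. Chance flags about 1 group in 20, and 42 groups were examined here, which share the same libraries. This is also the library with the highest hair keratin level.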

How the results depend on the processing

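In every alternative run, 0 of the 40 members were called between genotypes, and the median log2 fold change lay between -0.42 (without NPY-tet replicate 2) and 0.27 (without NPY-tet replicate 1). For the hair keratin slope, Kif11 was the 1 member called with DESeq2, with limma-voom with quality weights and with no filter. Top2a was the 1 member called in the 5 wild-type libraries. In these runs 2.23, 2.71, 1.27 and 0.936% of all genes were called with a positive slope. Leaving out 1 library gave 0 to 1 members called, against 0.159 to 2.11% of all genes with a positive slope. The cause was not tested. Uncalled fold changes reversed for Bub1b (-0.11), Cdc20 (-0.26) and Mki67 (-0.39) with the hair keratin level in the model, and for Cdc20 (-0.15) and Mki67 (-0.12) with the ribosomal RNA set. Leaving out 1 library gave -0.15 to 0.45 for Bub1b, -0.28 to 0.051 for Ccne1, -0.38 to 0.47 for Cdc20, -0.64 to 0.55 for Mki67 and -0.033 to 0.32 for Prc1.

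Same-numbered mice did not deviate together (r of -0.04, -0.11 and 0.30), and only replicate 3 matched best with its own number. In a replicate block, wild-type replicates 4 and 5 have no partner and do not inform the estimates. With a replicate block, 0 members were called in either comparison, the median fold change was 0.05 and the median slope 0.24, with E2f1 at 0.21 and Pcna at 0.054, both reversed.

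The number of members with a positive slope at an unadjusted p under 0.05 ranged from 1 to 21 over the alternatives. The share of all genes ranged from 1.35 to 8.36%. Leaving out 1 library kept the sign of all 18 slopes named, and moved those of 10 members by over 1.5 times: Bub1b, Cdc20, Cenpf, E2f1, Foxm1, Mcm7, Pcna, Plk1, Tyms and Ube2c. For Kif11 the slope lay between 0.15 and 0.21, with an adjusted p of 0.0172 to 1.00, and with the replicate block it was 0.32 (adjusted p = 1). In simulated counts slopes of 0.1 were recovered in 2.08% of genes, and the median slope of the 28 members outside licensing and DNA synthesis was 0.11.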
